A study of Mus musculus with 9 samples.

Results

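Nectins and nectin-like molecules are immunoglobulin-family adhesion proteins that bind one another across the gap between neighbouring cells. The members examined here were Nectin1, Nectin2, Nectin3, Nectin4, Pvr and Cadm1. They were chosen by gene symbol, and the set was put together because Nectin4 was low in every Cosmc KO library. All 6 were found among the 16867 genes of the deposited table, and all 6 were among the 16764 genes tested. The difference of Nectin4 between the groups is therefore given as a description with no test, and the other 5 genes were named with results of these data known.

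Poly(A) RNA was sequenced from glomeruli, the filtering units of the kidney, of 9 male C57BL/6 mice aged 30 to 35 days. The 4 Cosmc KO mice carried Podo-Cre and a floxed allele of the X-linked gene Cosmc (genotype Podo-Cre; Cosmc Y/flox). Of the 5 controls, controls 1, 4 and 5 were Podo-Cre; Cosmc Y/+, control 2 was Cosmc Y/flox without Cre, and control 3 was Cosmc Y/+ without Cre. Cosmc, listed as C1galt1c1, encodes the chaperone of the enzyme that extends mucin-type O-glycans. Podo-Cre is active in podocytes, the epithelial cells around the glomerular capillaries. Bead-isolated glomeruli also contain endothelial, mesangial and parietal epithelial cells, which the labels do not describe as deleted.

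The tails of nectins bind afadin, an actin-binding scaffold, and nectin contacts help to recruit cadherins and catenins to adherens junctions. Pvr (CD155, or nectin-like 5) and Cadm1 (nectin-like 2) belong to the related nectin-like group, which does not bind afadin. Nectin2 and Pvr are also ligands of the lymphocyte receptors CD226 and TIGIT, and Cadm1 is a ligand of CRTAM. In the glomerulus, the slit diaphragm between podocyte foot processes is a modified adherens junction built around nephrin, itself an immunoglobulin-family adhesion protein.

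Values below are scaled read counts, that is, read counts divided by one size factor per library. Differences are on the log2(scaled count + 1) scale, Cosmc KO minus control, with the SE from limma. A gene was called at a Benjamini-Hochberg adjusted p under 0.05 over all genes tested. The libraries held 35.0 to 58.1 M recovered reads in Cosmc KO and 31.5 to 41.8 M in controls. The deleted gene, C1galt1c1, read 1123, 939, 1030 and 751 in Cosmc KO 1 to 4, against 1552, 1508, 1487, 1385 and 1409 in controls 1 to 5 (-0.63 ± 0.11, adjusted p = 0.0111). All 18 podocyte markers examined were present in every library. Cosmc KO 1 stood apart from Cosmc KO 2 to 4 in its podocyte and proximal tubule markers, so values without it are given where they differ.

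The 6 genes lie on 4 mouse chromosomes (GRCm38, GENCODE vM21 annotation). Nectin4 (ENSMUSG00000006411.12) spans chr1:171370099-171388598 on the plus strand. Nectin2 (chr7:19716644-19750483, minus strand) and Pvr (chr7:19903578-19921160, minus strand) lie 153 kb apart. Nectin1 (chr9:43743984-43807461) and Cadm1 (chr9:47530173-47857637) are both on the plus strand of chromosome 9, with 3.72 Mb between them. Nectin3 occupies chr16:46387706-46498525 on the minus strand. An antisense gene that was not measured, Gm20512, shares 135 bases of exon with Nectin2, and whether the counting used strand is not given in the sources used here.

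The bases before the RefSeq start of Nectin4, the gene on whose difference the set was chosen, are shown beside those of Nectin2, the most abundant of the 6. Both were taken from RefSeq (GRCm38.p6), are written 5′ to 3′ on the gene's strand, and have matches to CANNTG (the E-box core, read on both strands since it is palindromic) and to GGGCGG (a GC box, either strand) in capitals. The Nectin4 stretch (chr1:171369923-171370098) ends at the GENCODE start, 74 bases before the RefSeq start. The Nectin2 stretch (chr7:19749574-19749823, minus strand) is the full 250 bases before its RefSeq start; it lies inside the longer GENCODE span of the gene and overlaps no GENCODE exon of it, which also holds for the Nectin3 window counted below.
Nectin4: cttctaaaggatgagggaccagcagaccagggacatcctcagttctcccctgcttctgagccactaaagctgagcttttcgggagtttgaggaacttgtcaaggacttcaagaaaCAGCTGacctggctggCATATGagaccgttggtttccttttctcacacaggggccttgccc
Nectin2: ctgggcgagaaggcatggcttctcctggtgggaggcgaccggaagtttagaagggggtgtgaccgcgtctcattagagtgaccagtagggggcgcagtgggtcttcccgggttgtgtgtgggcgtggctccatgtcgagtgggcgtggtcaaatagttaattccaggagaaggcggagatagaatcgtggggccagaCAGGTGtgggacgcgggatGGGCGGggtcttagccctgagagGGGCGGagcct

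In the full 250-base windows, Nectin4 had 3 CpG dinucleotides, against 16 for Nectin2 and 30 for Nectin3, and the median of all 32851 windows was 6. Nectin4 had 2 CANNTG matches and 0 GGGCGG matches, Nectin2 had 1 and 2, and Nectin3 had 0 and 5. CANNTG was present in 66.2% of all windows and GGGCGG in 32.7%. None of these 3 windows held TATAAA or CCAAT on either strand, which 12.4% and 33.8% of all windows held. These counts describe letters in the windows only. Such a window was found for 3 of the 6 genes.

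Nectin4, an epithelial nectin, read 208, 161, 221 and 239 in Cosmc KO 1 to 4. In controls 1 to 5 it read 1111, 894, 976, 1052 and 1446. The highest Cosmc KO library was below the lowest control. The means were 207 ± 33.1 in Cosmc KO (SD, n = 4) and 1096 ± 212 in controls (SD, n = 5), so Cosmc KO held 18.9% of the control level, a difference of -2.39 ± 0.16 (SE). These values rest on 170 to 347 reads per Cosmc KO library and 654 to 1341 per control. Over all genes tested, 7.74% were called and 3.58% were called lower, and in 6.11% all Cosmc KO libraries lay below all controls. The gene was chosen on this difference, so nothing is read from these shares.

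**Figure D1:**
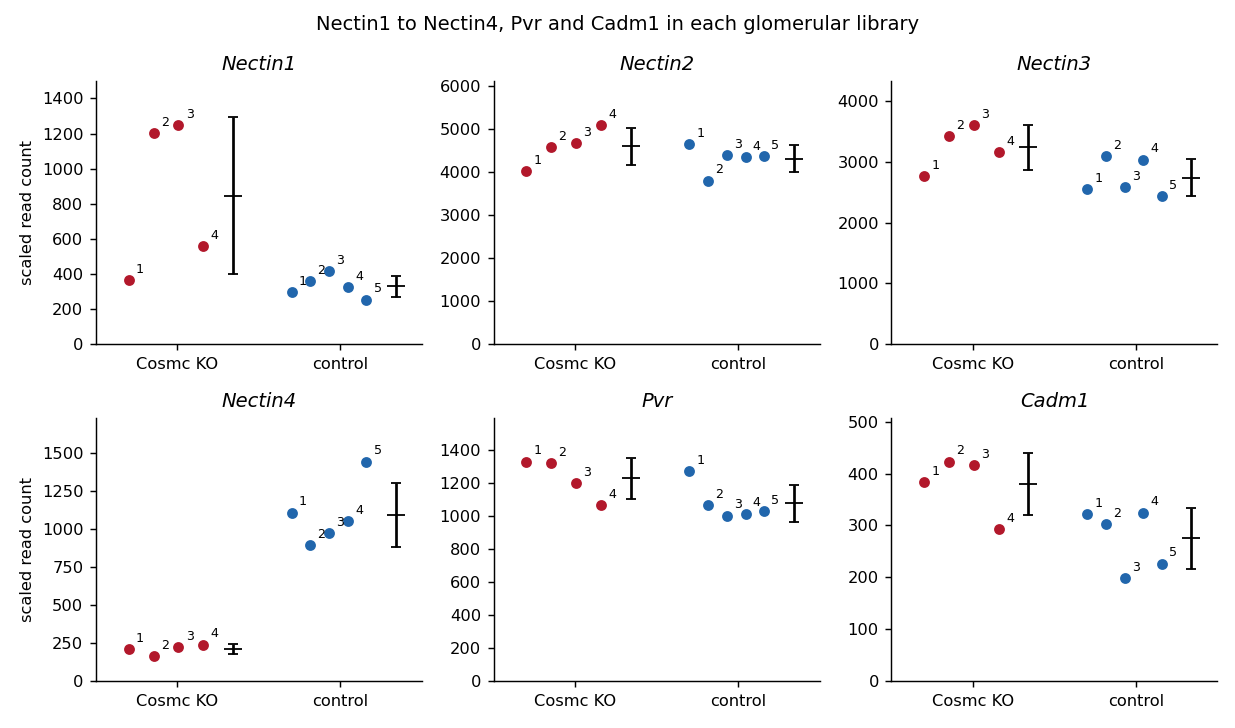
Scaled read count (y axis, from 0) of each gene in the 4 Cosmc KO (red) and 5 control (blue) libraries; the small digit is the replicate number, and the black bar is the mean ± SD. Nectin4 lies between 161 and 239 in Cosmc KO and between 894 and 1446 in controls, while the groups overlap for the other 5 genes.

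Nectin4 was read beside the podocyte markers of each library as a description only, since the gene was chosen on its difference. The summed level of the 18 podocyte markers (in k, units of 1000 scaled counts) was 1214, 461, 661 and 798 k in Cosmc KO 1 to 4, against 1690, 1223, 1175, 1237 and 1480 k in controls 1 to 5. In Cosmc KO 1 the sum was inside the span of the controls (its mean log2 level, 14.9, was just below the lowest control, 15.0), and its Nectin4 count of 208 lay among those of the other Cosmc KO libraries. Per 10000 scaled counts of podocyte markers, Nectin4 was 1.72, 3.50, 3.34 and 3.00 in Cosmc KO 1 to 4 and 6.57, 7.31, 8.31, 8.50 and 9.78 in controls 1 to 5, without overlap. This ratio was not computed over all genes, so nothing is read from it. Of the 18 podocyte markers, 9 were themselves called lower and 0 higher, and in bulk glomeruli fewer cells of a type and less RNA per cell cannot be told apart. With the podocyte score (the mean log2 level of the markers) as a covariate, the Nectin4 difference was -2.05, and with the proximal tubule score it was -2.21. The podocyte score was at most 14.92 in Cosmc KO and at least 14.95 in controls. Fits with this covariate, here and below, therefore cannot fully separate the score from the group.

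Within the control group, Nectin4 was highest in control 5 and lowest in control 2. These were the controls with the lowest and the highest summed level of the 16 proximal tubule markers, at 47.7 and 228 k scaled counts. In Cosmc KO the 16 tubule markers summed to 75.0, 675, 557 and 255 k, a wide range over which Nectin4 stayed between 161 and 239. The 10 parietal epithelial markers (3 called higher, 1 lower) ranged from 22.8 to 32.3 k in Cosmc KO and from 15.4 to 18.4 k in controls, and their part in the Nectin4 difference was not tested. None of these podocyte, tubule or parietal markers was at 0 in any library.

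**Figure D2:**
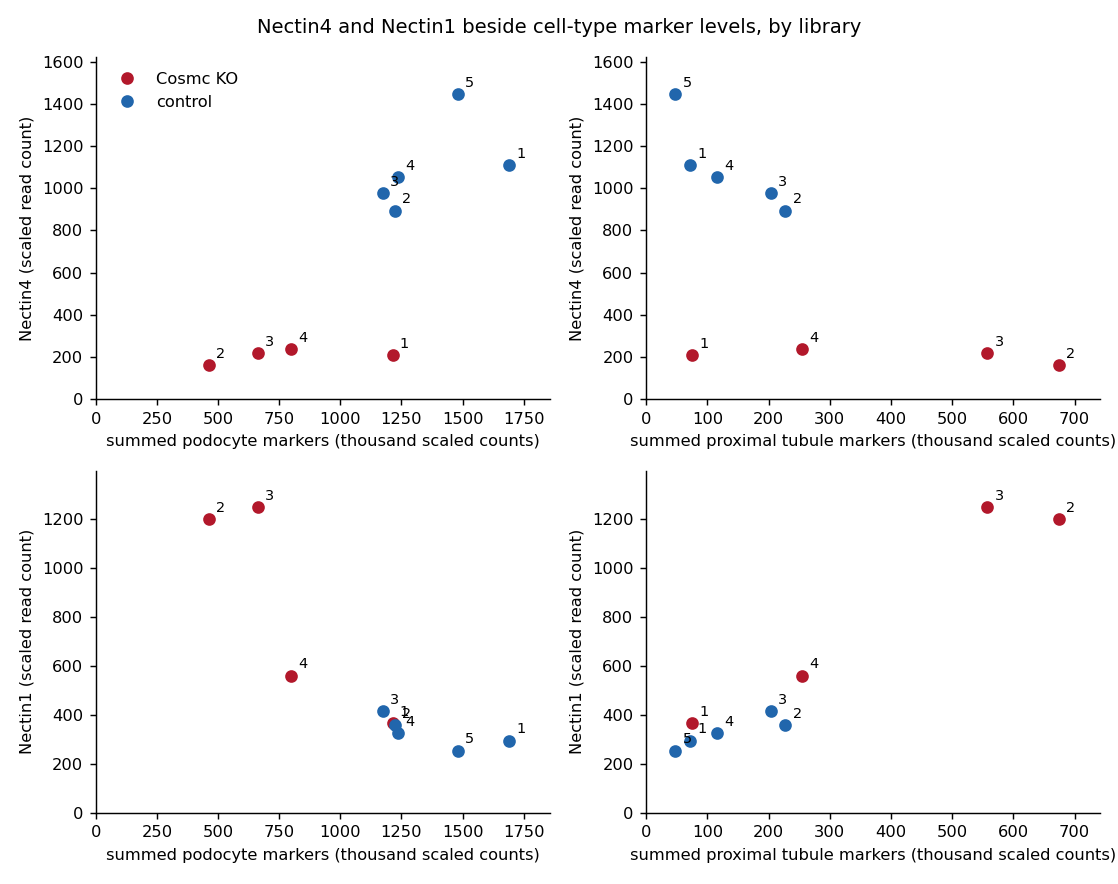
Scaled read count of Nectin4 (top) and Nectin1 (bottom) against the summed level of 18 podocyte markers (left) and 16 proximal tubule markers (right), in units of 1000 scaled counts; each point is a library, red for Cosmc KO and blue for control, with its replicate number. Cosmc KO 1 has a podocyte sum inside the control range, a mean log2 podocyte level (14.92) below the lowest control (14.95), and a Nectin4 count of 208. Nectin1 is highest in Cosmc KO 2 and 3, which have the most tubule markers.

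The genes on either side of Nectin4 were read in the same libraries. Arhgap30, which starts 0.356 kb beyond its end on the same strand, averaged 495 ± 95.7 in Cosmc KO and 432 ± 205 in controls (difference 0.30 ± 0.31, adjusted p = 0.549). Usf1, the next gene, encodes a transcription factor and had a difference of 0.04 ± 0.08 (adjusted p = 0.733). On the other side, Klhdc9 had a difference of 0.36 ± 0.41 (adjusted p = 0.591) and Pfdn2, a prefoldin subunit, 0.05 ± 0.11 (adjusted p = 0.790). None of these 4 neighbours was called by limma. Across the neighbours of all 6 genes, 23 of 24 could be tested and 1 was called, where 7.74% of all genes were called. It was Bcl3, an atypical NF-kappa-B regulator 80.8 kb from Pvr (591 ± 182 in Cosmc KO, 296 ± 68.6 in controls, difference 0.98 ± 0.24, adjusted p = 0.0389).

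The genes whose profile over the 9 libraries lay closest to that of Nectin4 were Myh6, Lect1, Postn, Ppp1r14c and Igkv6-32. Closeness was the root-mean-square difference of log2(scaled count + 1) after each gene was centred on its own mean, and it came to 0.27, 0.27, 0.28, 0.29 and 0.34. Myh6, a cardiac myosin heavy chain, averaged 55.0 ± 12.4 in Cosmc KO and 249 ± 46.4 in controls. Postn, the matrix protein periostin, averaged 102 ± 18.0 in Cosmc KO and 496 ± 201 in controls, and Lect1, which encodes chondromodulin, 14.5 ± 1.49 in Cosmc KO and 94.1 ± 14.2 in controls. The group difference of Nectin4 sets most of this likeness, so no test was made.

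Levels of different genes were compared as RPKM, recovered reads scaled to the length of the merged exons and to the depth of the library. In Cosmc KO, Nectin2 stood at 31.4 ± 3.91 RPKM, Nectin3 at 6.08 ± 0.71, Pvr at 4.78 ± 0.36, Nectin1 at 3.56 ± 1.85, Nectin4 at 1.33 ± 0.24 and Cadm1 at 0.865 ± 0.117. In controls the order was Nectin2 at 29.6 ± 2.48 RPKM, Nectin4 at 7.04 ± 1.58, Nectin3 at 5.17 ± 0.60, Pvr at 4.20 ± 0.29, Nectin1 at 1.40 ± 0.26 and Cadm1 at 0.630 ± 0.127. In Cosmc KO, the ranges of Nectin3 and Pvr, of Pvr and Nectin1, and of Nectin1 and Nectin4 overlapped. In controls, Nectin4 and Nectin3 overlapped, as did Nectin3 and Pvr. Nectin2 was above every other member in every library of both groups.

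Lengths taken from the longest coding transcript changed this order below Nectin2 in both groups. In Cosmc KO, Pvr at 10.1 RPKM then passed Nectin3 at 8.50, and Cadm1 at 2.02 passed Nectin4 at 1.37. Pvr in controls then came to 8.86 RPKM, above Nectin4 at 7.26 and Nectin3 at 7.22, and Cadm1 at 1.47 passed Nectin1 at 1.40. Against all 16358 genes with a length, the control level of Nectin2 lay at the 89.5th percentile, Nectin4 at the 62.0th and Cadm1 at the 20.7th.

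The summed RPKM of the 4 nectin genes was 42.4 ± 5.29 in Cosmc KO and 43.2 ± 3.45 in controls. Nectin4 made up 3.74, 2.35, 3.10 and 3.42% of that sum in Cosmc KO 1 to 4, against 15.8, 14.6, 14.5, 15.4 and 20.6% in controls 1 to 5. Nectin1 made up 8.22 ± 3.93% in Cosmc KO and 3.27 ± 0.72% in controls. The mean share of Nectin2 was 74.3 ± 3.94% in Cosmc KO and 68.5 ± 1.91% in controls, though its level differed by only 0.09 (adjusted p = 0.523, limma). A lower share of Nectin4 raises the shares of the other genes by construction. Since Nectin4 was chosen on its difference, nothing is read from these shares.

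**Figure D3:**
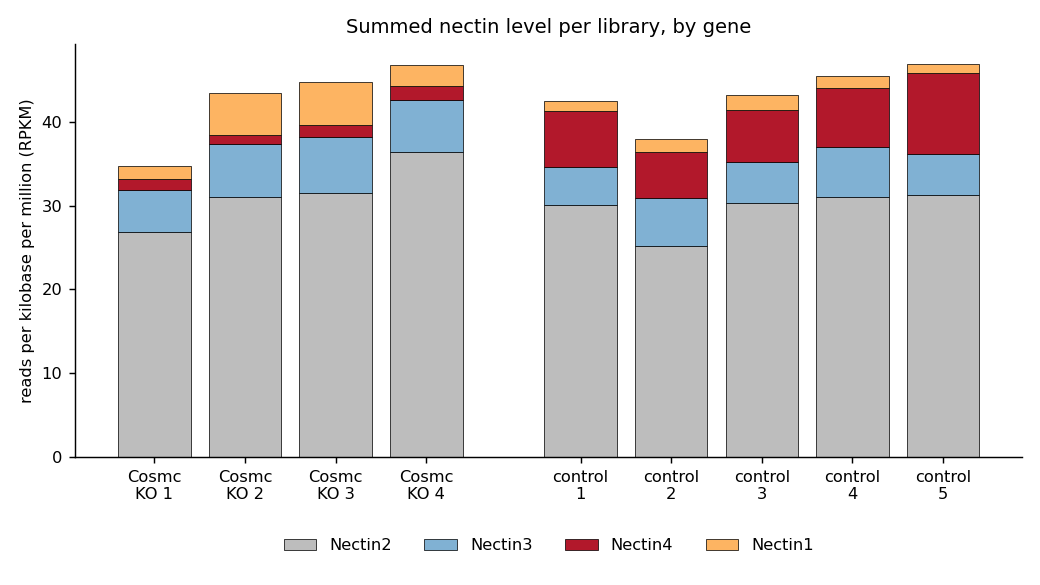
Stacked bars of the RPKM of Nectin2, Nectin3, Nectin4 and Nectin1 in each library, Cosmc KO left and control right, starting at 0. The Nectin4 segment (dark red) is 1.02 to 1.60 RPKM in Cosmc KO and 5.54 to 9.68 RPKM in controls, while the bar heights overlap between the groups.

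Nectin1, a widely expressed nectin that pairs across cells with Nectin3 and Nectin4, read 366, 1201, 1249 and 561 in Cosmc KO 1 to 4. It read 295, 358, 416, 326 and 255 in controls 1 to 5. Cosmc KO 2 to 4 were above every control and Cosmc KO 1 lay within the control range. The difference was 1.19 ± 0.35 (95% interval 0.42 to 1.97) and did not pass limma's test (adjusted p = 0.0657). It passed in the fit that pairs animals by replicate number (1.11, adjusted p = 0.0133), without Cosmc KO 1 (1.53, adjusted p = 0.00571), with edgeR (adjusted p = 0.0412) and with DESeq2 (adjusted p = 0.0016). It did not pass with edgeR excluding control 3 (adjusted p = 0.0631), with Cre-carrying controls only (adjusted p = 0.136), or without any 1 library other than Cosmc KO 1 (adjusted p up to 0.184). The authors' deposited table gives 1.36 with an adjusted p of 0.00161.

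Nectin1 was read beside the tubule and podocyte markers of each library, and its association with them was not tested. The libraries with the most Nectin1, Cosmc KO 2 and 3, had 675 and 557 k scaled counts of tubule markers and the lowest podocyte sums, 461 and 661 k. Per 10000 scaled counts of tubule markers, Nectin1 was 48.8, 17.8, 22.4 and 22.0 in Cosmc KO 1 to 4 and 41.4, 15.7, 20.4, 28.1 and 53.4 in controls 1 to 5, with overlapping ranges. Per 10000 scaled counts of podocyte markers, it was 3.02, 26.1, 18.9 and 7.03 in Cosmc KO 1 to 4. In controls 1 to 5 that ratio was 1.75, 2.93, 3.54, 2.64 and 1.72, so Cosmc KO 1 lay within the control range. The Nectin1 difference was 0.59 when the tubule score was a covariate (adjusted p = 0.167), with the podocyte score -0.03 (adjusted p = 0.975), and without Cosmc KO 2 and 3 together 0.48 (adjusted p = 0.419). The nearest profiles were those of Phgdh, an enzyme of serine synthesis, and Cyba, a subunit of NADPH oxidase, at root-mean-square differences of 0.14 and 0.15.

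Nectin3, the partner that binds Nectin1 most strongly, read 2765, 3426, 3612 and 3169 in Cosmc KO 1 to 4 and 2553, 3096, 2591, 3040 and 2443 in controls 1 to 5. In 3 of the 4 Cosmc KO libraries it was above all controls. The difference of 0.24 ± 0.11 (95% interval 0.01 to 0.47) did not pass (adjusted p = 0.173). Without Cosmc KO 1 it was 0.31 and passed (adjusted p = 0.0395). With the podocyte score as a covariate it was -0.01 (adjusted p = 0.984). Cmtm4 and Bloc1s1 had the nearest profiles, at 0.06 and 0.07.

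Nectin2, which is expressed by many cell types, read 4019, 4568, 4674 and 5087 in Cosmc KO 1 to 4 and 4650, 3793, 4385, 4340 and 4358 in controls 1 to 5. The groups overlapped widely, and the difference of 0.09 ± 0.09 (95% interval -0.10 to 0.28) did not pass (adjusted p = 0.523). It was the steadiest of the 6 genes among controls, with a coefficient of variation of 7.27%, against 21.3% for Cadm1 and 19.4% for Nectin4. Nkiras2 and Mcrs1 were closest to its profile, at 0.03 each.

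Pvr read 1328, 1317, 1196 and 1066 in Cosmc KO 1 to 4 and 1271, 1063, 1001, 1013 and 1029 in controls 1 to 5. Control 1 lay apart from the other controls and within the Cosmc KO range. The difference of 0.19 ± 0.10 (95% interval -0.04 to 0.42) did not pass (adjusted p = 0.249). Cadm1 read 383, 423, 417 and 293 in Cosmc KO 1 to 4 and 322, 303, 198, 325 and 227 in controls 1 to 5. Its difference was 0.48 ± 0.19 (95% interval 0.06 to 0.90, adjusted p = 0.141), with Cosmc KO 4 inside the control range. The nearest profiles were those of Sdf2 and Wdr1 to Pvr (0.06 and 0.07) and of Tbc1d9 and Ssc4d to Cadm1 (0.15 and 0.17).

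Among the 5 genes other than Nectin4, limma called 0 at the adjusted threshold, where 7.74% of all genes were called. At an unadjusted p under 0.05 the count was 3, against 27.5% of all genes. DESeq2 and edgeR each called 1, Nectin1, where they called 16% and 8.69% of all genes. The authors' deposited table likewise lists 1, Nectin1, with 16% of its genes under an adjusted p of 0.05. The paired fit called Nectin1 alone, where it called 16.7% of all genes, and the fit without Cosmc KO 1 called Nectin1 and Nectin3, where it called 29.1%. All 5 differences were positive, with a median of 0.24, against 0.00 over all genes tested. With the podocyte score as a covariate, Nectin1 (-0.03) and Nectin3 (-0.01) were negative. The genes were named with results known, so nothing is read from the shared sign. For 0 of the 5 were the groups free of overlap, against 11.9% of all genes, 5.83% with Cosmc KO higher.

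**Figure D4:**
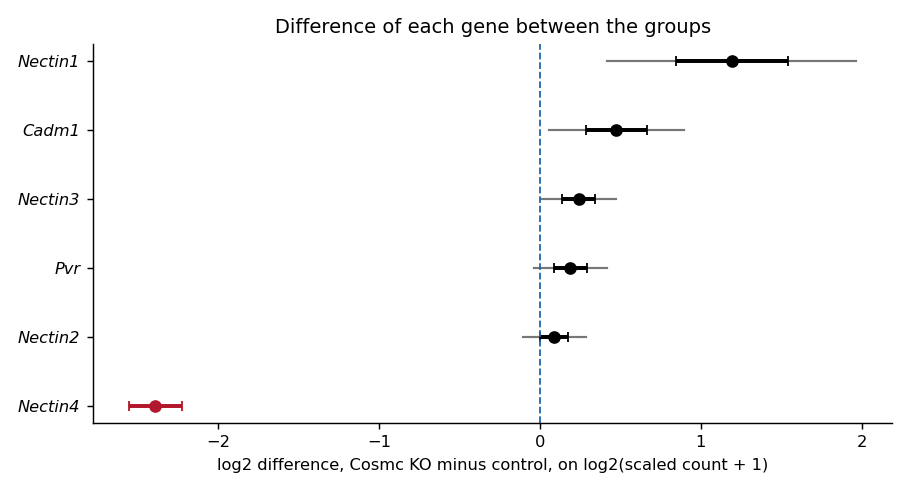
Difference of each gene between the groups (Cosmc KO minus control, log2 of scaled count + 1), with thick bars for ± SE and thin grey lines for the 95% interval; no interval is drawn for Nectin4 (red), which was chosen on this value, and the dashed line is the median of all genes. Nectin4 stands at -2.39 and the other 5 genes between 0.09 and 1.19.

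The rule that chose the genes made no use of differences among the controls. Controls that carry Podo-Cre and controls that do not were therefore compared for all 6. The tubule markers summed to 228 and 203 k in Cre-free controls 2 and 3. In Cre-carrying controls 1, 4 and 5 they summed to 71.3, 116 and 47.7 k, so Cre and tubule content cannot be told apart here. Nectin4 averaged 1203 in the 3 Cre-carrying controls and 935 in the 2 Cre-free controls, a difference of 0.35 ± 0.16 (95% interval -0.03 to 0.73, adjusted p = 0.661, limma). Nectin1 averaged 292 in Cre-carrying and 387 in Cre-free controls (-0.41 ± 0.18, 95% interval -0.83 to 0.02, adjusted p = 0.634). The other 4 differences lay between -0.09 and 0.23, with adjusted p of at least 0.875.

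Limma and edgeR called none of the 6 genes in this comparison of controls, and 0 had an unadjusted p under 0.05. Over all genes, limma called 1 of 16673 (0.006%) and edgeR called 1. The gene limma called was Prm1, a sperm protamine, at 3283, 1892 and 2851 in Cre-carrying controls 1, 4 and 5 and at 5.47 and 2.00 in Cre-free controls 2 and 3. In Cosmc KO 1 to 4, which also carry Cre, it read 1078, 424, 683 and 711. Against the 3 Cre-carrying controls alone, the Cosmc KO difference of Nectin4 was -2.53.

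The molecules that nectins and Cadm1 work with were read in 6 lists drawn up from their known roles, leaving out the 6 genes above. Of 64 such genes tested, 4 rose and 1 fell, and their median difference was 0.02, against 0.00 over all genes. The whole table had 4.16% of genes called higher and 3.58% called lower. With TMM scaling the table had 677 genes called higher and 857 lower, against 698 and 600 here. Without Cosmc KO 1, 9 of the 64 rose and 7 fell, in a fit that called 29.1% of all genes. In the paired fit 9 rose and 6 fell, where 16.7% of all genes were called, and with only the Cre-carrying controls none was called by limma.

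Among 26 cytoplasmic partners, 0 rose and 1 fell, with a median of 0.02. The gene that fell was Mpp3, a membrane-associated guanylate kinase that binds the tail of CADM1 in human cells. It read 652, 264, 425 and 409 in Cosmc KO 1 to 4, against 849, 732, 756, 807 and 921 in controls 1 to 5. Every Cosmc KO library was below every control, as for 6.11% of all genes (-0.96 ± 0.22, adjusted p = 0.0276). The call was lost without control 1, 3, 4 or 5, and without Cosmc KO 3 or 4, each alone (adjusted p up to 0.0797), and with the podocyte score as a covariate it was -0.21 (adjusted p = 0.598).

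Afdn, which encodes afadin and is named here after its values were seen, read 4958, 5039, 5057 and 4537 in Cosmc KO 1 to 4 and 4011, 4338, 4336, 4204 and 3431 in controls 1 to 5. The groups did not overlap, as for 5.83% of all genes with Cosmc KO higher. The difference of 0.27 ± 0.08 did not pass (limma adjusted p = 0.0785, DESeq2 adjusted p = 0.036). Of the 3 nectin-like genes listed, 2 were tested and none was called by limma. Cadm4 was the more abundant, at 15903 ± 1550 in Cosmc KO and 13314 ± 1794 in controls (0.26 ± 0.12, adjusted p = 0.175; 0.33 and adjusted p = 0.0451 in the paired fit). Cadm2 was near the lower limit of the table, at 8.52 ± 4.74 in Cosmc KO and 15.6 ± 4.28 in controls (adjusted p = 0.170).

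Of 18 cadherin, catenin and other adherens junction genes, 4 rose, 0 fell, and the median difference was 0.20. Over all genes, 4.16% were called higher. Cdh13, which encodes the membrane-anchored T-cadherin, read 747, 747, 638 and 796 in Cosmc KO 1 to 4 and 509, 357, 277, 309 and 227 in controls 1 to 5. The groups did not overlap, as for 5.83% of all genes with Cosmc KO higher (1.17 ± 0.21, adjusted p = 0.00981). Cdh6, the kidney cadherin of the developing nephron, averaged 461 ± 126 in Cosmc KO and 197 ± 63.0 in controls (1.23 ± 0.28, adjusted p = 0.0271). Vcl, the actin linker vinculin, had a difference of 0.42 ± 0.11 (adjusted p = 0.0425), and Actn1, the actin cross-linker alpha-actinin 1, 0.45 ± 0.12 (adjusted p = 0.0473).

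Cdh13 kept its call when any 1 library was left out (adjusted p up to 0.0353). Cdh6 lost its call without Cosmc KO 2 or 3 or control 2, 4 or 5 (adjusted p up to 0.0855), and Actn1 without Cosmc KO 2 or 3 or control 2, 3, 4 or 5 (adjusted p up to 0.149). Vcl lost its call without any single library other than Cosmc KO 1 (adjusted p up to 0.118). Podocyte markers were lower and tubule markers higher in Cosmc KO 2 to 4 than in Cosmc KO 1, and both scores were entered as covariates. Among the Cosmc KO libraries, Vcl, Cdh6 and Mpp3 were highest in Cosmc KO 1, at 10727, 560 and 652. Actn1 was highest in Cosmc KO 3, at 9493, and Cdh13 in Cosmc KO 4, at 796. With the tubule score, 2 of the 64 genes were called (4.49% of all genes were): Cdh6 at 1.39 and Cdh13 at 1.18. With the podocyte score none of the 5 genes named here kept its limma call (2.18% of all genes were called), and 1 other listed gene was called lower. The differences under the podocyte score were 1.39 for Cdh6, 1.33 for Cdh13, 0.54 for Vcl and 0.58 for Actn1, with adjusted p of 0.0673 to 0.124 (limma). For Mpp3 it was -0.21 (adjusted p = 0.598, limma). The summed level of the 10 parietal markers, given above, did not overlap between the groups, though only 3 of them were called higher and 1 lower. The 10 mesangial and vascular muscle markers (3 called higher, 0 lower) summed to 142 to 200 k in Cosmc KO and 121 to 170 k in controls, and the 11 endothelial markers (2 called higher, 0 lower) to 392 to 482 k in Cosmc KO and 353 to 442 k in controls. The part of these 3 marker lists in the calls was not tested.

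**Figure D5:**
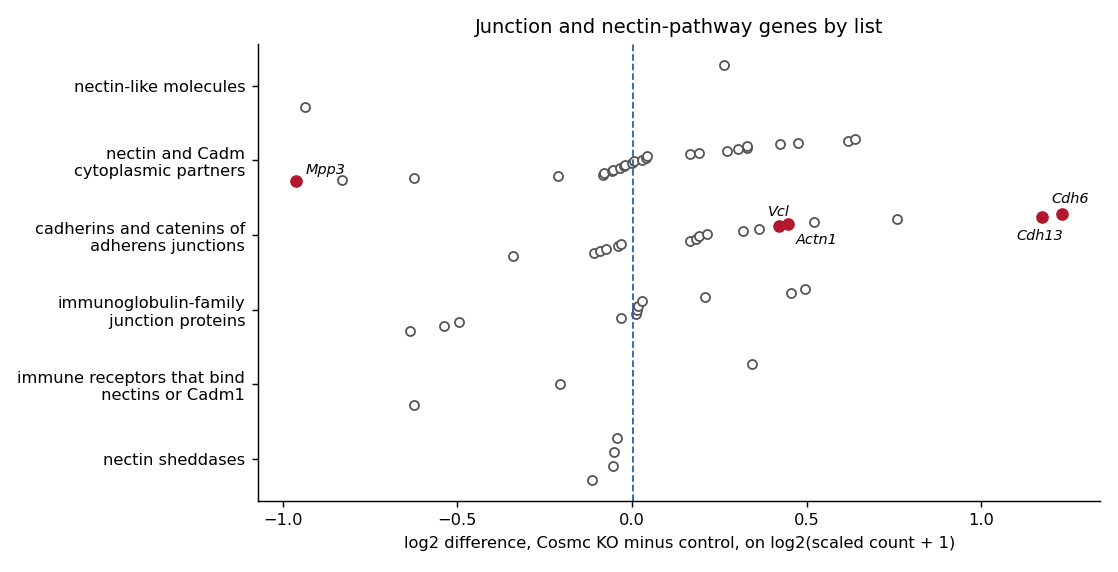
Difference between the groups (Cosmc KO minus control, log2 of scaled count + 1) for each tested gene of the 6 lists; filled red points are genes called by limma, open points are not called, the vertical spread within a list only separates points, and the dashed line is the median of all genes. Cdh6 and Cdh13 stand at 1.23 and 1.17 and Mpp3 at -0.96.

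None of 11 immunoglobulin-family junction genes was called by limma (1 had an unadjusted p under 0.05; median 0.02). The most abundant were Nphs1, which encodes nephrin, at 49871 ± 18852 in Cosmc KO and 73973 ± 11553 in controls (-0.63 ± 0.24, adjusted p = 0.133), and Kirrel, its partner at the slit diaphragm, at 12926 ± 4908 in Cosmc KO and 17646 ± 4488 in controls (-0.49 ± 0.25, adjusted p = 0.225). Pairing brought both under the threshold (adjusted p = 0.0364 and 0.024), as did leaving out Cosmc KO 1 (adjusted p = 0.0163 and 0.0321).

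The lymphocyte receptors that bind these molecules were scarce. Of 6 listed, 3 were in the table and none was called by limma, with 0 at an unadjusted p under 0.05. Cd226 averaged 34.8 ± 18.4 in Cosmc KO and 37.9 ± 13.5 in controls (adjusted p = 0.768), and Cd96, a receptor for Pvr, 21.2 ± 11.8 in Cosmc KO and 32.0 ± 15.6 in controls (adjusted p = 0.344). The 14 immune cell markers (4 called higher) summed to 6.55 to 7.36 k in Cosmc KO and to 2.93 to 7.21 k in controls, and their part in these values was not tested. Of the 4 listed proteases that shed nectin ectodomains, Adam10 and Adam17 were the most abundant. Mmp9 was scarce, at 98.9 ± 40.9 in Cosmc KO and 104 ± 53.0 in controls. Adam10 averaged 7842 ± 1056 in Cosmc KO and 8094 ± 358 in controls (-0.05 ± 0.09, adjusted p = 0.733), and Adam17 averaged 4505 ± 717 in Cosmc KO and 4833 ± 149 in controls (-0.11 ± 0.10, adjusted p = 0.471; -0.22 and adjusted p = 0.0382 without Cosmc KO 1). Limma called none of the 4 sheddase genes, and 0 had an unadjusted p under 0.05.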

How the data were processed

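Per the submitters' processing notes, reads were handled with STAR 2.5.2b, featureCounts, Subread 1.5.2 and DESeq2 on GRCm38; filters, annotation release and strandedness are not given in the sources used here. The deposited sample columns hold a signal, gene read counts divided by one size factor per library. Beside them stand the authors' log2 fold change, its SE, a Wald score, and the p-value raw and adjusted, per the file headers. In each library 100% of values were whole multiples of one step within 0.01 of it, which gave the recovered reads; in control 3 the step was close to 1, so count tests were repeated without it. No per-sample column was left unused, and every pair of libraries differed by more than sampling noise (the smallest chi-square was 26.1 times its degrees of freedom).

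The main test was limma 3.58.1 (R 4.3.3) (trend option) on log2(value + 1), for genes reaching 10 in 4 libraries or more (2 of the 5 controls for the Cre comparison). The script was tested on simulated data. DESeq2 1.42.0 and edgeR 4.0.16 were run on the recovered reads. Of 16867 symbols, 16358 matched a single GENCODE vM21 gene. The members and lists were chosen with earlier results of these data known. Named genes were the members, listed genes that were called (otherwise the most abundant 2 of a list), the nearest profiles, and the neighbours, most of which are given as a count. Each library is a separately numbered mouse, and p-values measure the spread between these samples.

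Same-numbered Cosmc KO and control mice share an age, and their departures from their group's mean had correlations of 0.54, 0.51, 0.34 and 0.27. All 4 exceed 0.1, so the numbers were taken to pair them, but differently numbered libraries reached 0.53. Cosmc KO 3 was closer to control 2 (0.53) than to control 3 (0.34). Cosmc KO 4 was closer to control 5 (0.33) than to control 4 (0.27), and both of these controls were aged 30 days, as was Cosmc KO 4. The paired fit has the replicate number as a block and leaves out control 5.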

Additional observations from a re-analysis of the deposited data

Results flagged for a closer look

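Among 20 genes looked at in each group, a single library lay far from the others in 4 cases by Dixon's test, which flags about 1 in 20 groups by chance. Pvr read 1271 in control 1, Actn1 read 7534 in control 1 and Kirrel read 25666 in control 1, each the highest control. Cd96 read 59.3 in control 5, again the highest control.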

How the results depend on the processing

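Over 23 alternatives the Nectin4 difference stayed between -2.53 and -2.05, Nectin2 between 0.04 and 0.15, Pvr between 0.15 and 0.26 and Cadm1 between 0.31 and 0.59; no adjusted p of the last 3 passed. The calls over all genes (1298) became 428 with Cre-carrying controls only, 2679 with DESeq2 (2206 excluding control 3), 267 without Cosmc KO 2 and 3 together, 365 with the podocyte score, 752 with the tubule score and 2793 with the replicate block (pairing), and ranged from 473 to 4850 leaving out single libraries. The 5 calls among the listed junction genes became 0, 9 (8), 0, 1, 2 and 15 under the same settings in that order, 2 with edgeR excluding control 3, and 1 to 16 leaving out single libraries. The Cre comparison (1 call) gave 1 to 173 calls leaving out single controls, the 173 without control 4. Among the members other than Nectin4 and the listed junction genes named, the replicate block changed the calls of Nectin1, Cadm4, Nphs1 and Kirrel and no other. Neighbours, nearest profiles and C1galt1c1 were not refitted under the alternatives.

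Differences that turned sign were all of genes not called in the main limma fits. Of these genes, Nectin1, Nectin3, Nphs1, Kirrel and Adam17 were called under some other settings, given above. With the podocyte score the differences that turned sign were Nectin1 (-0.029), Nectin3 (-0.0099), Cadm2 (0.29), Nphs1 (0.26), Kirrel (0.40), Cd226 (0.80), Cd96 (0.41), Adam10 (0.23) and Adam17 (0.19). With the tubule score they were Cd226 (0.37), Adam10 (0.067) and Adam17 (0.023), and without Cosmc KO 2 and 3 Cd226 (0.47), Cd96 (0.037), Adam10 (0.086) and Adam17 (0.040). Leaving out single libraries gave -0.14 to 0.013 for Adam10 and -0.47 to 0.10 for Cd226, and in the Cre comparison -0.015 to 0.15 for Pvr, -0.22 to 0.041 for Nectin3 and -0.079 to 0.53 for Cadm1. The cause was not tested. Leaving out Cosmc KO 2 and 3, excluding control 3 from count tests and the transcript length were chosen after seeing the data. Low read numbers limit Cadm2, Cd226 and Cd96.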
